A study of Mus musculus with 17 samples.

Results

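The 10 genes described here are markers of macrophages: Lyz2, Csf1r, Adgre1, Cd68, Mrc1, C1qa, C1qb, C1qc, Tyrobp and Ctss. They were taken by gene symbol from the deposited kidney expression table, 10 of its 42794 genes. They were chosen from earlier results of these same libraries, in which Lyz2 was higher and Csf1r lower in the Ctr shRNA libraries than in control. The values of Ctr shRNA against control, and of any comparison that uses the same control libraries, are therefore a description of the markers: no p-value is given for them, and where a count of markers passing the genome-wide threshold stands beside the share of all genes, it supports nothing.

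RNA of whole mouse kidney was sequenced in 17 libraries, in a study of glucagon action in diabetic kidney disease in which the glucagon receptor gene Gcgr was to be knocked down by shRNA in proximal tubule epithelial cells. The control group (n = 4, titles NC, genotype WT) holds libraries 37, 38, 39 and 41. The Ctr shRNA group (n = 6) holds libraries 1, 4, 6, 8, 19 and 20, whose genotype label is Ctr shRNA while their titles read DKD_Vehicle, and which of the pair the animals were given cannot be settled from the labels. The group labelled Gcgr shRNA (n = 7, titles DKD_shRNA) holds libraries 13, 15, 29, 31, 32, 34 and 35. The sources used here do not give strain, age, the means of inducing disease or the delivery of the shRNA. Control differs from both other groups in both disease and shRNA label, which cannot be told apart. Nothing in the labels says that every library is a separate animal, and p-values cover only the spread among the libraries at hand.

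Macrophages are tissue-resident or blood-derived phagocytes that engulf debris and present antigen, and in the kidney they lie in the interstitium between the tubules. They depend on signalling through the CSF1 receptor, whose ligands are CSF1 and interleukin 34, and they make the C1q recognition molecule of the classical complement pathway. The genes fall into receptors and adaptors (Csf1r, Tyrobp, Adgre1, Mrc1), secreted effectors (Lyz2 and the 3 C1q chains) and lysosomal proteins (Cd68 and Ctss). In whole-kidney RNA, fewer cells of a type and less RNA per cell cannot be told apart.

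Every marker was detected in every group. The libraries held 13997657 to 17107876 reads, recovered from the whole-number steps of the FPKM values (fragments per kilobase of gene, corrected for how deeply each library was read). Gcgr itself went against the labels: it was at 20.8 ± 2.42 FPKM (SD, n = 4) in control, 9.74 ± 2.14 (n = 6) in Ctr shRNA and 13.02 ± 1.70 (n = 7) in the libraries labelled Gcgr shRNA, so no direction below is read as an effect of the knockdown. Library Ctr shRNA 20 stood apart, with the fat cell hormone gene Adipoq at 45.3 FPKM and the urothelial gene Upk3a at 56.8 FPKM. The summed adipocyte markers came to 698.9 FPKM there and to at most 49.0 in the other libraries, and the summed urothelial markers to 188.8 against at most 10.7.

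Promoters of 6 of the 10 markers (Lyz2, Cd68, Mrc1, C1qb, C1qc and Ctss) were found in the RefSeq table of build GRCm38.p6, each from 250 bases before to 50 bases after the start site. The 4 printed here belong to the markers with the largest FPKM ratios to control (Lyz2 and Ctss) and to a pair of chains that varied together across libraries (C1qb and C1qc). They read 5′ to 3′ on the gene's strand, and capitals mark AGGAAG, the core bound by ETS factors such as PU.1, or its reverse complement. The Lyz2 window is chr10:117282223-117282522 on the minus strand, that of C1qb chr4:136886151-136886450 (minus), that of C1qc chr4:136892865-136893164 (minus) and that of Ctss chr3:95526536-95526835 (plus).
Lyz2: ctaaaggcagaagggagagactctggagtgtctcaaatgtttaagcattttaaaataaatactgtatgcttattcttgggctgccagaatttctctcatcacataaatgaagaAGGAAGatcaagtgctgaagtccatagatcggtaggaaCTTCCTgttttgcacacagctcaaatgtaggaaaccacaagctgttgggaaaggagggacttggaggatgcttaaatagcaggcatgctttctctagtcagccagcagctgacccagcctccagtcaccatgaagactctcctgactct
C1qb: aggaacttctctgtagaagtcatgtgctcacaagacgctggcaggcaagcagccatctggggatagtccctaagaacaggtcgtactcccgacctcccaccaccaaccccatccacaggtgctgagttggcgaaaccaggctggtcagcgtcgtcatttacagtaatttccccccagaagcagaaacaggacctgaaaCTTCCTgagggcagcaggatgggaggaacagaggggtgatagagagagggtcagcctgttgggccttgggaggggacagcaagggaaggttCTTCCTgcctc
C1qc: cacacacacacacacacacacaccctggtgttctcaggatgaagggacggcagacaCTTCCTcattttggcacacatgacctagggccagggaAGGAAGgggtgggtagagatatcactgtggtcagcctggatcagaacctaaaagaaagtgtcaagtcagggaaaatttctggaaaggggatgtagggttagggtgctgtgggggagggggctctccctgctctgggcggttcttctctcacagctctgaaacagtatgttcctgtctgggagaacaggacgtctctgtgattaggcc
Ctss: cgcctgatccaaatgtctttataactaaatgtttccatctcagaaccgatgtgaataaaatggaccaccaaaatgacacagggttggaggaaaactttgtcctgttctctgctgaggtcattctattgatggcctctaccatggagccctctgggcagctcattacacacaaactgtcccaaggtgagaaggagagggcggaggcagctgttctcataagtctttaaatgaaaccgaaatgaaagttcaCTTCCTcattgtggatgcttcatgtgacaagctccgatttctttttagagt

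AGGAAG, searched on both strands, was found in 5 of the 6 marker promoters (all but Cd68) and in 35.4% of the 32851 promoters of the same length. The longer PU.1 form GAGGAAGT, which contains that core, was found in C1qc and Ctss and in 3.2% of all promoters. The interferon-stimulated response element (ISRE) was found in Ctss, 21 bases before its start site, and in 3.44% of all promoters. TTCNNNGAA, the STAT form, was in none of the 6 and in 8.3% of all. TATAAA was in Ctss, on the opposite strand 233 bases before its start site, and in 13.6% of all. In the Lyz2 window the core lies 137 and 99 bases before the start site, once on each strand. These matches describe letters, and no binding was measured here.

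Lyz2, which encodes the lysozyme that macrophages secrete to break down bacterial walls, was the marker with the largest ratio between groups. In control it was at 12.6, 10.2, 14.9 and 17.5 FPKM in libraries 37, 38, 39 and 41. In Ctr shRNA its lowest value was 17.57 (library 19), its median 38.5 and its highest 47.4 (library 6). In the libraries labelled Gcgr shRNA the lowest was 26.6, the median 33.7 and the highest 49.96 FPKM. Every Ctr shRNA and every Gcgr-labelled library lay above every control library, with Ctr shRNA 19 barely above control 41. The group means were 13.8 ± 3.14 (SD, n = 4), 36.4 ± 10.6 (n = 6) and 36.0 ± 7.93 FPKM (n = 7). The Ctr shRNA mean was 2.64 times the control mean, and on the log2(FPKM + 1) scale, which understates changes of low genes, the difference was 1.30 ± 0.23 (SE from limma). The Gcgr-labelled mean was 2.61 times that of control, a log2 difference of 1.32 ± 0.22.

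Lyz2 lies at chr10:117277331-117282321 (GRCm38, minus strand) beside Lyz1, a close copy expressed mainly in Paneth cells of the intestine. Of the 1267 distinct 50-base stretches in its annotated transcripts, 195 (15.4%) also occur in Lyz1, and of the 1217 stretches of 100 bases 24 (1.97%) do. The promoters of the pair are identical at 201 of 300 positions (67%). Lyz1 had 4 recovered reads over the control libraries, 83 over Ctr shRNA and 30 over the Gcgr-labelled libraries, against 1112, 4847 and 5201 for Lyz2. Lyz1 was therefore far below Lyz2 in every group, and the sources used here do not say how reads of shared stretches were assigned. The other 9 markers shared no 50-base stretch with another gene.

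Csf1r, the receptor tyrosine kinase on which macrophages depend for survival, had the opposite pattern. Control libraries 37, 38, 39 and 41 held 16.4, 15.4, 14.02 and 16.2 FPKM. In Ctr shRNA the lowest value was 5.49 (library 20), the median 7.59 and the highest 10.2 FPKM (library 19). In the Gcgr-labelled libraries the values ran from 8.36 (library 13) through a median of 10.8 to 12.2 FPKM (library 32). All 13 libraries of both shRNA groups thus lay below the lowest control library, and library 19, the lowest of its group for Lyz2, was the highest for Csf1r. The means were 15.5 ± 1.07 (SD, n = 4), 7.71 ± 2.08 (n = 6) and 10.6 ± 1.40 FPKM (n = 7). The Ctr shRNA mean was 0.498 times that of control (log2 difference −0.95 ± 0.15) and the Gcgr-labelled mean 0.684 times (−0.52 ± 0.14).

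The annotated end of Csf1r overlaps Hmgxb3, a gene on the opposite strand, by 871 bases of the gene spans, introns included. That equals 17.8% of the 4885 bases of the counted length of Csf1r, but how many of them lie in exons was not measured. The sources used here do not say whether strand was used in counting, so reads of the pair might not be separated in the overlap. Hmgxb3 was at 6.23 ± 0.362 (SD, n = 4), 5.05 ± 0.521 (n = 6) and 5.29 ± 0.808 FPKM (n = 7). Spread evenly over Hmgxb3, its reads in the overlap would amount to 1.11, 0.901 and 0.943 FPKM of Csf1r in the 3 groups. Those values take all 871 bases as counted in both genes, which was not checked. Reads in the overlap itself were not measured, and their part in the Csf1r values was not tested.

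**Figure D1:**
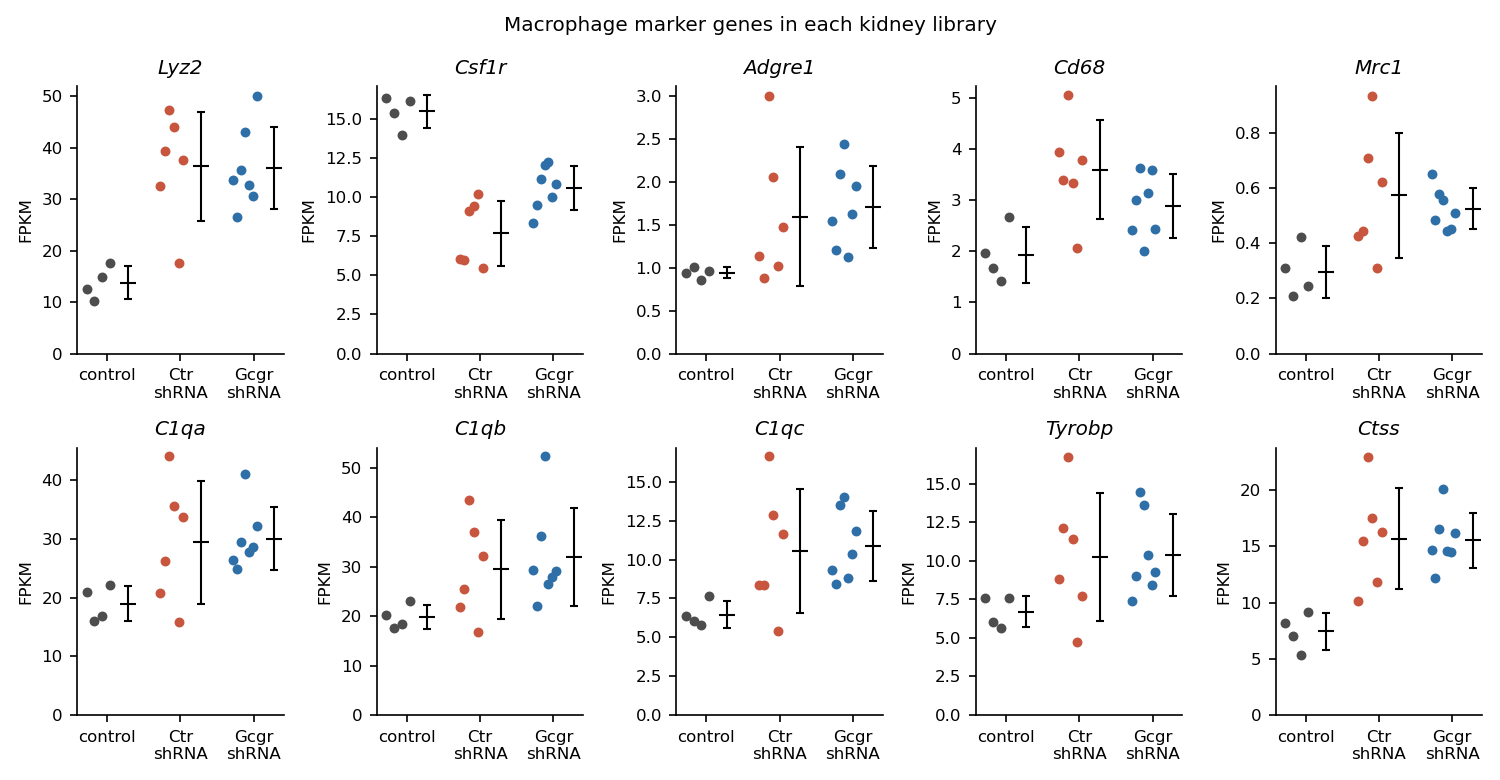
FPKM of each marker (y axis, linear and starting at 0) in each library, 1 panel per gene with its own scale, in control (n = 4), Ctr shRNA (n = 6) and Gcgr shRNA (n = 7). Points are libraries, and the dash and bar beside them are the mean and SD. Lyz2 lies between 10.2 and 17.5 FPKM in control and above that in all other libraries, while Csf1r lies between 14.02 and 16.4 FPKM in control and below that in all others.

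The 3 chains of C1q, which assemble into 1 recognition molecule that binds antibody and dying cells, are encoded side by side within 18675 bases (chr4:136880129-136898803). C1qa was at 20.9, 15.99, 16.9 and 22.1 FPKM in control libraries 37, 38, 39 and 41, from 15.9 through a median of 30.1 to 44.2 in Ctr shRNA, and from 25.0 through 28.6 to 41.1 in the Gcgr-labelled libraries. C1qb was at 20.2, 17.5, 18.5 and 23.1 FPKM in control, from 16.7 through 28.9 to 43.5 in Ctr shRNA and from 21.99 through 29.1 to 52.4 in the Gcgr-labelled libraries. C1qc, the lowest of the chains per length, was at 6.36, 6.06, 5.76 and 7.67 FPKM in control, from 5.40 through 10 to 16.7 in Ctr shRNA and from 8.46 through 10.4 to 14.01 in the Gcgr-labelled libraries. For all 3 chains the spread of Ctr shRNA enclosed or overlapped that of control: library 19 lay below the lowest control library and library 6 was the highest of its group. Every Gcgr-labelled library lay above every control library for C1qa and C1qc, and 6 of 7 did for C1qb.

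The Ctr shRNA means of C1qa, C1qb and C1qc were 1.55, 1.49 and 1.63 times those of control, and the Gcgr-labelled means 1.58, 1.61 and 1.69 times. On the log2 scale the differences for Ctr shRNA were 0.54 ± 0.22, 0.49 ± 0.23 and 0.56 ± 0.22 (SE). The chains kept close proportions within a library: C1qa was 0.785 to 1.14 times C1qb over all 17 libraries, and C1qc was 0.268 to 0.406 times C1qb.

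Ctss encodes cathepsin S, a lysosomal protease that trims the invariant chain during antigen presentation, and it had the second largest ratio. It was at 8.21, 7.06, 5.38 and 9.17 FPKM in control libraries 37, 38, 39 and 41, from 10.2 (library 1) through 15.9 to 22.9 (library 6) in Ctr shRNA and from 12.2 through 14.7 to 20.1 in the Gcgr-labelled libraries. No library of either shRNA group overlapped control. The means of 7.46 ± 1.63 (SD, n = 4), 15.7 ± 4.51 (n = 6) and 15.5 ± 2.45 FPKM (n = 7) put both groups at 2.11 and 2.08 times control.

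Cd68, a heavily glycosylated protein of macrophage lysosomes and endosomes, was low throughout. Control libraries held 1.96, 1.68, 1.41 and 2.67 FPKM, Ctr shRNA ran from 2.07 through 3.60 to 5.06, and the Gcgr-labelled libraries ran from 2.001 through 3.02 to 3.64. Control 41 overlapped both other groups. The Ctr shRNA mean was 1.86 times that of control (log2 difference 0.64 ± 0.17) and the Gcgr-labelled mean 1.497 times (0.41 ± 0.16). The control value rests on 149 recovered reads over 4 libraries.

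Tyrobp encodes DAP12, a signalling adaptor for activating receptors of myeloid and natural killer cells. It was at 7.62, 6.04, 5.63 and 7.56 FPKM in control libraries 37, 38, 39 and 41, from 4.73 through 10.1 to 16.7 in Ctr shRNA and from 7.42 through 9.27 to 14.5 in the Gcgr-labelled libraries. Both groups overlapped control, Ctr shRNA by library 19 alone, which lay below every control library. The means were 1.53 and 1.55 times that of control.

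Adgre1 encodes F4/80, the surface receptor used most often to recognise mouse macrophages. It was at 0.937, 1.01, 0.854 and 0.961 FPKM in control, from 0.879 through 1.31 to 3.01 in Ctr shRNA and from 1.12 through 1.63 to 2.44 in the Gcgr-labelled libraries. All Gcgr-labelled libraries lay above control, and 5 of the 6 Ctr shRNA libraries did. Mrc1, the mannose receptor CD206, was at 0.310, 0.211, 0.424 and 0.244 FPKM in control, from 0.312 through 0.536 to 0.936 in Ctr shRNA and from 0.446 through 0.512 to 0.651 in the Gcgr-labelled libraries. Mrc1 never reached 1 FPKM and so did not pass the filter for testing (1 FPKM or more in at least 4 libraries), which left 9 of the 10 markers. Its ratios to control were 1.94 and 1.77, resting on 115 recovered reads in control.

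Read over all 10 markers, 9 had a higher mean in Ctr shRNA than in control and Csf1r alone a lower one, and the same held for the Gcgr-labelled libraries, which were set against the same control libraries. In the limma fit over all 13279 tested genes, 4 of the 9 tested markers passed an adjusted p of 0.05 in Ctr shRNA against control (Lyz2, Ctss and Cd68 higher, Csf1r lower), beside 7.49% of all tested genes. The groups did not overlap for 3 of the 9 (Lyz2, Ctss and Csf1r), beside 10.1% of all tested genes. For the Gcgr-labelled libraries against control 2 of the 9 passed (Lyz2 and Ctss), beside 2.02% of all tested genes, and the groups did not overlap for 6 of the 9 (Lyz2, Adgre1, C1qa, C1qc, Ctss and Csf1r), beside 5.54%. Of all calls in that comparison 70.5% were higher, a share that moved to 58.2% after rescaling each library to the same FPKM total (TPM). The markers were chosen with these contrasts in view, so their counts describe the choice and are no test of it.

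Which markers passed also moved with the libraries used, given here as description. In Ctr shRNA against control Cd68 no longer passed without control 37, 38 or 39 or without Ctr shRNA 6, and also with no filter on low values or with only the 2 groups compared. There C1qa and C1qc passed without Ctr shRNA 19 or with limma sample weights. For the Gcgr-labelled libraries against control, Csf1r passed under 6 of the 28 alternatives, among them leaving out Ctr shRNA 20.

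**Figure D2:**
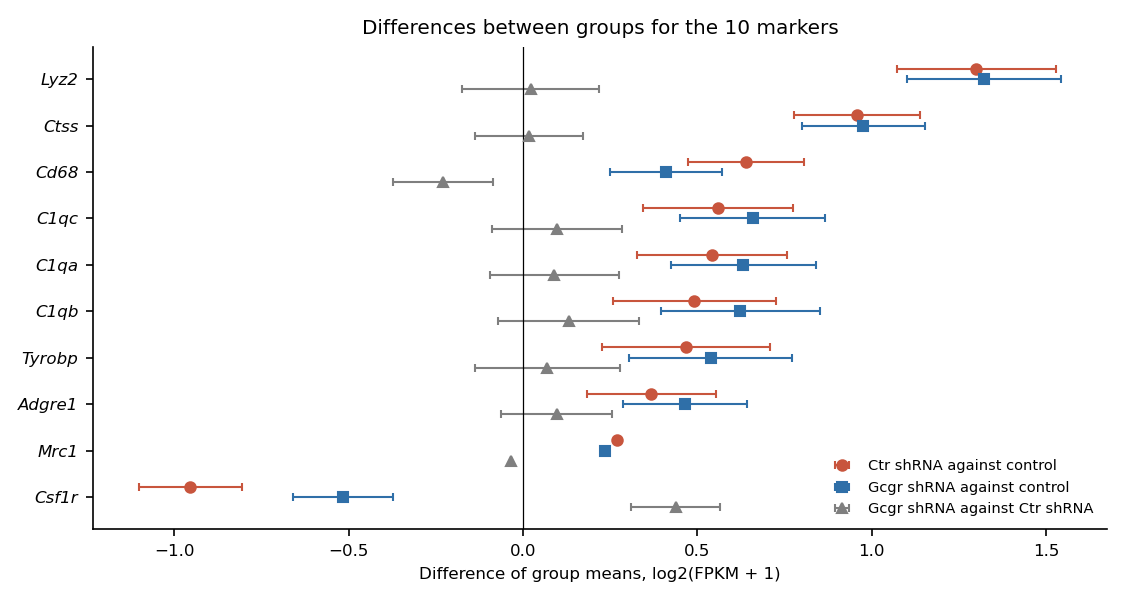
Difference of group means on the log2(FPKM + 1) scale (x axis) for each of the 10 markers (y axis) in the 3 comparisons. Points are differences and bars are standard errors from limma, with no bar for Mrc1, which was not tested. Lyz2 stands furthest to the right for both groups against control (1.30 and 1.32) and Csf1r is the 1 marker to the left (−0.95 and −0.52).

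The libraries labelled Gcgr shRNA and the Ctr shRNA libraries could be tested against each other, a comparison that shares its Ctr shRNA libraries with the one in view when the markers were chosen. None of the 9 tested markers passed in limma, as none of the 13279 genes did (0%), and limma voom on the recovered reads also called 0. At an unadjusted p under 0.05, 1 marker (Csf1r) and 7.32% of all genes passed. No marker had groups that did not overlap, beside 0.203% of all genes. The Csf1r mean in the Gcgr-labelled libraries was 1.37 times that in Ctr shRNA, with a log2 difference of 0.44 ± 0.13 (SE, limma adjusted p = 0.345, 0.127 to 0.679 over the alternatives), and 4 of its 7 libraries lay above all 6 Ctr shRNA libraries. Lyz2 differed by 0.02 ± 0.20 (limma adjusted p = 0.985) and Ctss by 0.02 ± 0.16 (limma adjusted p = 0.985). Cd68 was at 0.803 times the Ctr shRNA mean (−0.23 ± 0.14, limma adjusted p = 0.774). The C1q chains, Tyrobp and Adgre1 differed by 0.07 to 0.13, with limma adjusted p of 0.917 to 0.964. The Csf1r difference was over 3 times its standard error and did not pass once adjusted over all genes. Those of the other tested markers were under 2 times theirs, which does not show that the groups are alike.

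The opposite directions of Lyz2 and Csf1r changed the order of the markers, which FPKM allows to be compared between genes because it is per length. In control the order by mean was C1qb, C1qa, Csf1r, Lyz2, Ctss, Tyrobp, C1qc, Cd68, Adgre1 and Mrc1. Neighbours there that did not differ by more than 1 SD were C1qb and C1qa, Csf1r and Lyz2, Ctss and Tyrobp, and Tyrobp and C1qc. In Ctr shRNA Lyz2 stood first and Csf1r 7th, and in the Gcgr-labelled libraries Lyz2 stood first and Csf1r 6th, between C1qc and Tyrobp. In both, Lyz2 and C1qb, and C1qb and C1qa, were within 1 SD of each other, and so was Csf1r with Tyrobp. Cd68, Adgre1 and Mrc1 closed the order in all 3 groups.

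Within single libraries the ratio of Lyz2 to Csf1r separated the groups from control. It was 0.660 to 1.08 in control, 1.72 to 6.84 with a median of 5.27 in Ctr shRNA, and 2.67 to 4.61 with a median of 3.19 in the Gcgr-labelled libraries. The ratio of Ctss to Csf1r was 0.384 to 0.566 in control, 1.16 to 2.96 in Ctr shRNA and 1.19 to 1.76 in the Gcgr-labelled libraries. The ratio of C1qb to Csf1r was 1.14 to 1.42 in control, 1.64 to 5.88 in Ctr shRNA and 2.17 to 4.35 in the Gcgr-labelled libraries. None of these ratios overlapped between control and either other group, and all overlapped between Ctr shRNA and the Gcgr-labelled libraries. Being built from the genes chosen for their direction, the ratios are a description.

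**Figure D3:**
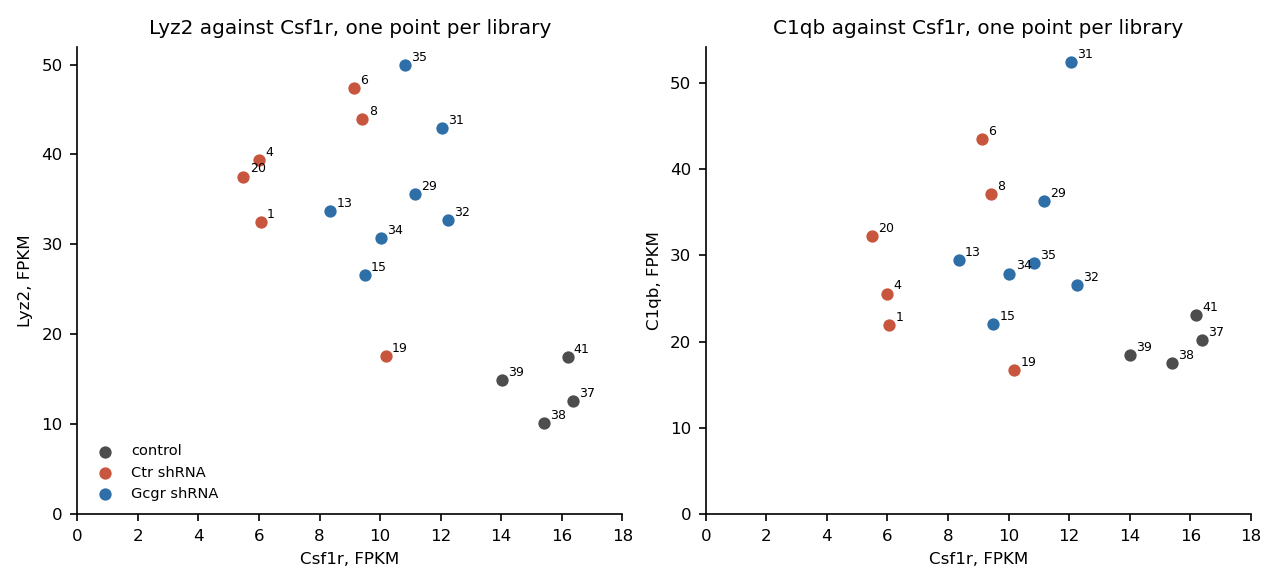
FPKM of Lyz2 (left) and C1qb (right) on the y axes against FPKM of Csf1r on the x axes, both linear and starting at 0. Each point is 1 library with its title number, coloured by group. The 4 control libraries sit at the lower right, at 14.02 to 16.4 FPKM of Csf1r, and all others lie to their left, the nearest on the Csf1r axis being Gcgr shRNA 32 at 12.2 FPKM. Ctr shRNA 19 is the lowest of its group on both y axes.

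To see how the markers moved together apart from the group differences, the group mean was subtracted from log2(FPKM + 1) and Pearson's r taken for the 45 pairs over the 17 libraries. These values describe libraries that share their depth and tissue makeup, and carry no p. The C1q chains had r of 0.929 to 0.932 with each other. The 36 pairs without Csf1r all had r above 0, from 0.151 to 0.932 with a median of 0.68. Lyz2 had r of 0.375 to 0.83 with the 8 markers other than Csf1r. The 9 pairs with Csf1r ran from −0.138 to 0.395 with a median of 0.148, and without Ctr shRNA 20 from −0.106 to 0.459 with a median of 0.259. Lyz2 and Csf1r had r of −0.078 and Spearman's rho of 0.11. By the median, Csf1r thus went least with the other markers over these 17 libraries, and Cd68 with Mrc1 was the lowest pair among the rest (r 0.151). Ctr shRNA 19 weighs on the pairs with Csf1r. Its deviation from the group mean was 0.397 for Csf1r and below 0 for every other marker, down to −0.947 for Lyz2. How r changes without that library was not tested.

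**Figure D4:**
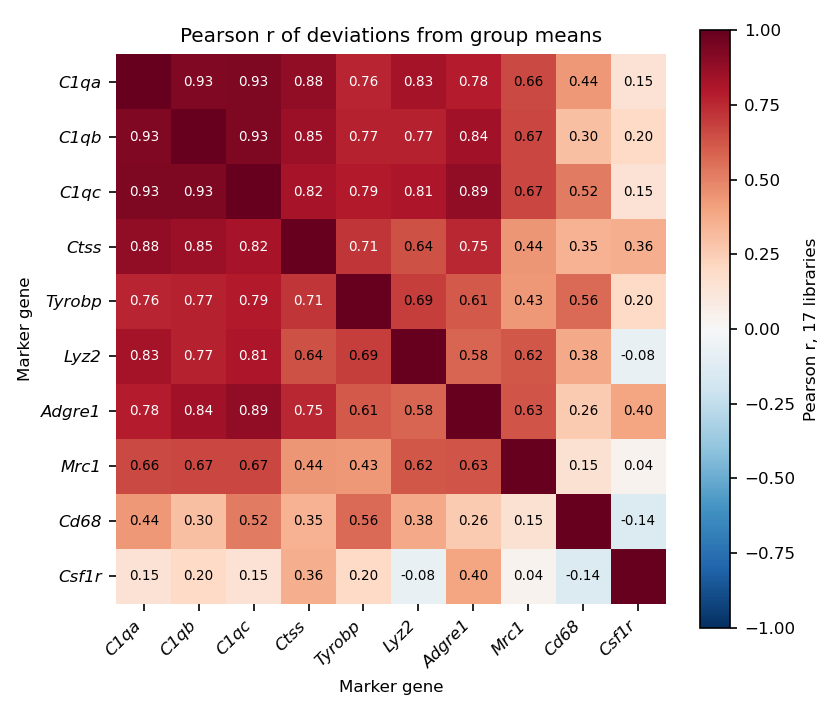
Pearson's r of log2(FPKM + 1) minus the group mean between each pair of markers over 17 libraries, on a colour scale from −1 to 1. The C1q chains form the block nearest 1 (0.929 to 0.932), and the row of Csf1r is the palest (−0.138 to 0.395).

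A few libraries carried much of the spread within groups. Ctr shRNA 6 was the highest of its group for 8 of the 10 markers and Ctr shRNA 19 the lowest for 7. Gcgr shRNA 31 was the highest of its group for 5 and Gcgr shRNA 15 the lowest for 5. The same Ctr shRNA libraries were the extremes for other cell types: the summed endothelial markers were 229.9 FPKM in library 6 and 99.5 in library 19, the summed podocyte markers 41.8 and 23.0, and the summed T and natural killer cell markers 14.1 and 3.26. The proximal tubule markers summed to 33000 FPKM in library 19, the highest of its group, and to 14500 in library 20, the lowest. The gene Kap alone had a mean of 21470 FPKM in Ctr shRNA, where the median sum was 25690, so these sums rest mostly on Kap. In Ctr shRNA 20 Csf1r had its lowest value, a deviation of −0.391 from the group mean of log2(FPKM + 1), and Tyrobp was also low (−0.282). The other markers deviated there by −0.016 to 0.271. The part of these other cell types in the marker differences was not tested.

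The genes most like each marker over the 17 libraries, by Pearson's r of log2(FPKM + 1) were sought among 11331 genes. Mpeg1, which encodes the pore-forming macrophage protein perforin-2, was the nearest to C1qc (r 0.975), C1qa (0.941), Tyrobp (0.904) and Adgre1 (0.888). Laptm5, a lysosomal membrane gene of blood cells, was the nearest to C1qb (0.922). Ctss was most like the antigen presentation genes Cd74 (0.919) and H2-Aa (0.918). Lyz2 was most like Ubd (0.909), a ubiquitin-like gene, and S100a13 (0.904), a calcium-binding protein gene. Among the genes most like Csf1r was Myo5a (0.927), a myosin gene that is not a macrophage marker. Myo5a was at 4.43, 1.75 and 2.68 FPKM in control, Ctr shRNA and the Gcgr-labelled libraries. Cd68 and Mrc1 were less closely matched, at r of 0.828 with U2surp, a splicing gene, and 0.863 with Mmp2, a matrix protease gene. These r values were lower after the group means were subtracted: 0.961 for C1qc with Mpeg1, 0.803 for Lyz2 with Ubd and 0.736 for Csf1r with Myo5a.

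Other genes of macrophages and their relatives, which hold none of the 10 markers, were taken from lists of tissue macrophage genes, monocyte genes, pan-myeloid and pan-leukocyte genes, CSF1 receptor axis genes and DAP12 partners. Of 69 listed genes 38 were tested. Like the markers, all the gene lists were chosen with earlier results of these data known. Counts and p-values of listed genes against control are therefore a description and no independent support. In Ctr shRNA against control 6 were higher (Gas6, Cebpa, Il34, Plac8, Lst1 and Csf1) and none lower at an adjusted p under 0.05 in limma, beside 3.58% of all tested genes called higher and 3.91% lower. Their log2 differences were above 0 for 33 of 38, beside 51.5% of all tested genes, with a median of 0.40 beside 0.01 over all tested genes. The count of 6 fell to 2 without control 37 or 38 or Ctr shRNA 4, to 1 without control 39 and to 3 without Ctr shRNA 6 or 20, and went up to 12 without Ctr shRNA 19. In the Gcgr-labelled libraries against Ctr shRNA none of the 38 passed in limma or in limma voom and 1 had an unadjusted p under 0.05, with a median of 0.03.

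The ligands of the CSF1 receptor went the other way from the receptor. Il34, made by tubular epithelium, rose from 17.8 ± 3.04 (SD, n = 4) to 28.5 ± 6.94 FPKM (n = 6) in Ctr shRNA, a log2 difference of 0.63 ± 0.16 (SE, limma adjusted p = 0.0244). That call was lost without control 37, 38 or 39 or Ctr shRNA 4 (limma adjusted p up to 0.102), and with no filter or only the 2 groups compared. In the Gcgr-labelled libraries Il34 was at 33.4 ± 5.16 FPKM (n = 7), higher than control by 0.87 ± 0.16 (limma adjusted p = 0.00684), and all 28 alternatives kept that call. Csf1 rose from 1.36 ± 0.149 to 2.41 ± 0.617 FPKM in Ctr shRNA (limma adjusted p = 0.0390), a call lost without any of 8 libraries: all 4 controls and Ctr shRNA 1, 4, 6 and 20 (limma adjusted p up to 0.109). It was also lost with no filter, TPM, voom, only the 2 groups compared, or both Ctr shRNA 20 and Gcgr shRNA 31 left out. In the Gcgr-labelled libraries Csf1 was at 2.02 ± 0.481 FPKM. Cebpa, a myeloid and liver transcription factor gene, rose from 23.1 ± 1.57 to 39.9 ± 10.2 FPKM in Ctr shRNA (limma adjusted p = 0.0152), a call lost without control 39 (limma adjusted p = 0.0607). Spi1, which encodes PU.1, was at 1.22 ± 0.202, 1.97 ± 0.485 and 2.09 ± 0.612 FPKM in the 3 groups.

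Of the tissue macrophage genes 6 of 16 were tested, and Gas6, the ligand of the engulfment receptors Axl and Mertk, was the 1 that passed. It went from 195.1 ± 10.3 FPKM (SD, n = 4) in control to 330.7 ± 40.4 (n = 6) in Ctr shRNA, a log2 difference of 0.75 ± 0.09 (limma adjusted p = 0.000116), and to 312.4 ± 15.2 (n = 7) in the Gcgr-labelled libraries (limma adjusted p = 0.000274). All 28 alternatives kept both calls. The highest marker in control, C1qb, was at 19.8 FPKM, far below Gas6. Which kidney cells the RNA of Gas6, or of the other listed genes, came from was not tested. The median of the 6 was 0.06 in Ctr shRNA against control, and Mertk itself was at 13.7, 11.1 and 11.2 FPKM and Axl at 4.74, 5.19 and 4.64 in the 3 groups. Defining genes of several resident or scavenger states were near 0: Cd163 had means of 0.0714, 0.112 and 0.113 FPKM, Trem2 of 0.0528, 0.251 and 0.255, and Vsig4 was listed at 0 in all 4 control libraries and at means of 0.0119 and 0.0132 in the others.

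Of the monocyte genes 3 of 12 were tested, with a median difference of 0.70 in Ctr shRNA against control. Without Ctr shRNA 20 that median was 0.47 and 0 of the 3 passed. Plac8, a gene of inflammatory monocytes and lymphocytes, rose from 4.99 ± 1.38 to 9.45 ± 3.21 FPKM (limma adjusted p = 0.0348), a call lost without control 37, 38 or 39 or Ctr shRNA 4, 6 or 20 (limma adjusted p up to 0.126), and with no filter, voom or only the 2 groups compared. Ccr2, the chemokine receptor of recruited monocytes, was at 0.616, 1.01 and 1.14 FPKM and Cd14 at 4.39 ± 0.990, 8.46 ± 4.88 and 6.51 ± 2.23 (SD). Of the pan-myeloid and pan-leukocyte genes 19 of 22 were tested, and 17 had a difference above 0 in Ctr shRNA, with a median of 0.43. Lst1 was the 1 that passed there, at 1.14 ± 0.273 and 3.51 ± 1.78 FPKM (limma adjusted p = 0.0478), and the call was lost when any of 12 libraries was left out: all 4 controls, Ctr shRNA 1, 4, 6 and 20, and Gcgr shRNA 15, 29, 31 and 35 (limma adjusted p up to 0.131).

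In the Gcgr-labelled libraries against control, 5 of the 38 genes were higher (Gas6, Il34, Hcst, Fcgr1 and Clec7a) and none lower, beside 1.42% of all tested genes called higher and 0.595% lower. The difference was above 0 for 33 of 38, beside 48.8% of all tested genes, with a median of 0.38. The count fell to 2 without control 38 or 41 and to 3 without control 37 or 39 or Gcgr shRNA 13, 34 or 35. Fcgr1, the high-affinity antibody receptor, went from 0.427 ± 0.0754 to 1.34 ± 0.477 FPKM (limma adjusted p = 0.0434), and Clec7a, the beta-glucan receptor dectin-1, from 0.322 ± 0.146 to 1.11 ± 0.316 (limma adjusted p = 0.0240). Hcst, which encodes the adaptor DAP10 and is 1 of 2 tested DAP12 partners, went from 0.502 ± 0.336 to 1.71 ± 0.799 FPKM (limma adjusted p = 0.0357). The call of Fcgr1 was lost without any of 11 libraries (all 4 controls, Ctr shRNA 1 and 8, and Gcgr shRNA 13, 29, 31, 34 and 35), that of Clec7a without control 38, 39 or 41, and that of Hcst without control 37, 38 or 41 or Gcgr shRNA 13, 34 or 35. The highest limma adjusted p for these was 0.150, 0.0951 and 0.169, and all 3 calls were also lost with no filter. Those of Fcgr1 and Hcst were also lost with a pseudocount of 5 and with voom. The call of Hcst was lost with only the 2 groups compared too, and that of Fcgr1 without both Ctr shRNA 20 and Gcgr shRNA 31.

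Lysosomal genes, the wider class of Cd68 and Ctss, moved in both directions. Of 22 tested, 3 rose (Ctsz, Ifi30 and Hexa) and 2 fell, Gusb among them, in Ctr shRNA against control, with a median of 0.21, beside 3.58% of all tested genes called higher and 3.91% lower. Their differences were above 0 for 17 of 22, beside 51.5% of all tested genes. Without Ctr shRNA 20, 7 were called higher and 2 lower, beside 548 higher and 464 lower of 13183 genes. Hexa, a gene of lysosomal glycolipid breakdown, went from 19.98 ± 0.408 (SD, n = 4) to 37.4 ± 5.24 FPKM (n = 6, limma adjusted p = 0.000116). Gusb, beta-glucuronidase, went from 14.5 ± 2.10 to 9.35 ± 1.28 FPKM (limma adjusted p = 0.00857). Hexa alone of the 22 passed in the Gcgr-labelled libraries against control (33.6 ± 3.42 FPKM, limma adjusted p = 0.000649). The kidney tubule also has lysosomes, so these genes do not belong to macrophages alone.

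Markers of other cells were counted in the same fit, as changes beside which the macrophage markers stand. In Ctr shRNA against control Ccl5, a T cell and natural killer cell chemokine gene, rose from 0.858 ± 0.179 to 3.43 ± 1.75 FPKM (limma adjusted p = 0.0113) and was the 1 to pass of the T and natural killer cell markers (2 of 12 tested). It also passed in the Gcgr-labelled libraries against control, at 3.13 ± 1.04 FPKM (limma adjusted p = 0.0259), a call lost without any control library or Gcgr shRNA 13 or 35. None passed among the tested dendritic cell markers (2 of 8), neutrophil markers (3 of 11), B and plasma cell markers (2 of 6), endothelial markers (11 of 11), lymphatic endothelial markers (4 of 6), adipocyte markers (5 of 8), urothelial markers (3 of 6) or podocyte markers (4 of 5) in either comparison with control. Their median differences in Ctr shRNA against control were 0.14, −1.12, −0.04, 0.14, 0.07, 0.84, 0.76 and −0.04 in that order. The adipocyte and urothelial medians turned on Ctr shRNA 20: outside it the summed levels in that group reached at most 30.8 and 5.96 FPKM, and without it the medians were −0.01 over the 4 genes and −0.39 for the 1 gene that still passed the filter. Without it the endothelial median was 0.03. The gene with the smallest p in each was Batf3, S100a8, Mzb1, Plvap, Pdpn, Plin4, Upk1b and Nphs1, with a limma adjusted p of 0.566, 0.0893, 0.261, 0.360, 0.235, 0.191, 0.532 and 0.806. Plin4 and Upk1b did not pass the filter without Ctr shRNA 20. S100a8, a neutrophil calcium-binding protein gene, was at 3.94 ± 3.03 FPKM in control and 1.15 ± 0.884 in Ctr shRNA. Of the 10 proximal tubule markers 4 fell (Slc27a2, Miox, Slc5a2 and Cubn), beside 3.91% of all tested genes called lower, with a median of −0.51. Without Ctr shRNA 20, 3 fell and the median was −0.39. Miox, an enzyme of inositol breakdown, went from 1051 ± 146.8 to 608.9 ± 78.2 FPKM (limma adjusted p = 0.00102). The call of Cubn was lost without control 37, 38 or 39 or Ctr shRNA 1, 4 or 6 (limma adjusted p up to 0.124). The part of these genes' changes in the macrophage marker values was not tested.

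**Figure D5:**
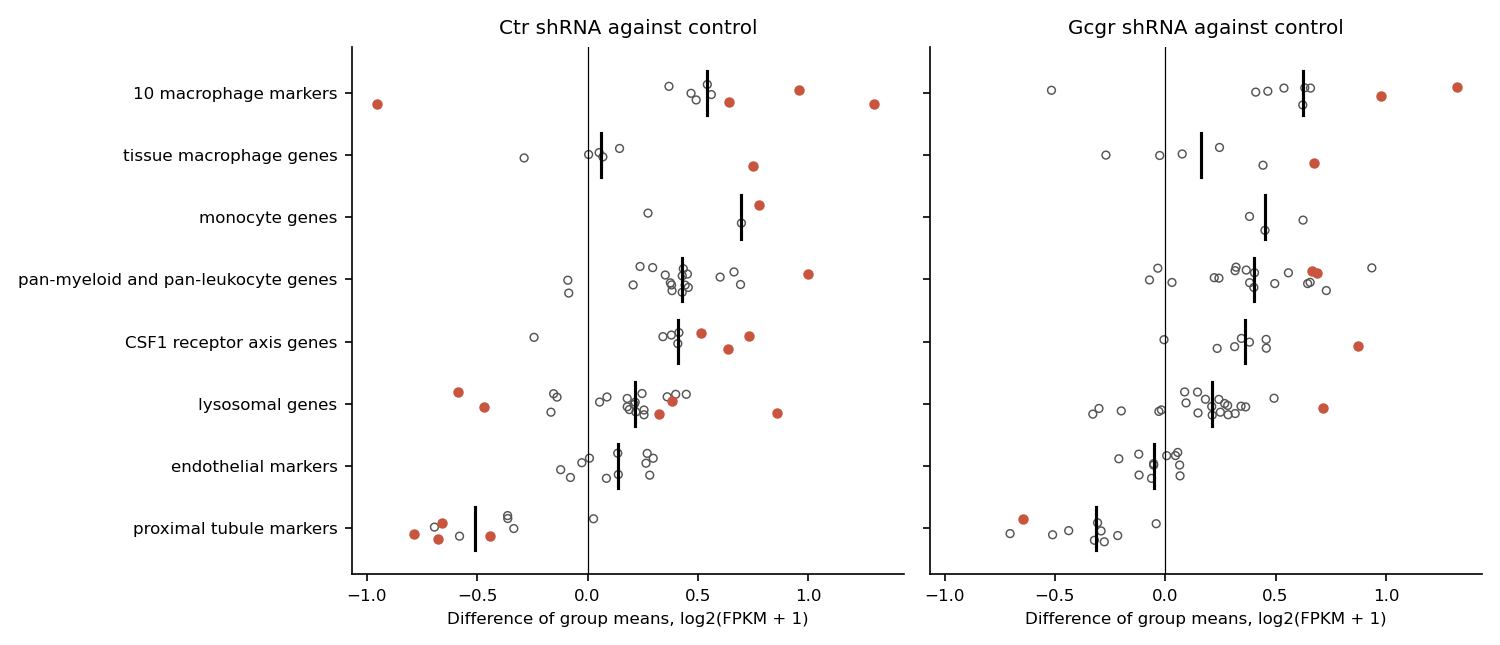
Difference of group means on the log2(FPKM + 1) scale (x axis) of each tested gene in the macrophage marker set and in other lists (y axis), 1 panel per comparison. Open circles are genes that did not pass an adjusted p of 0.05 in limma, filled red circles are genes that did, and the bar is the list's median. In the panel of Ctr shRNA against control the 9 tested markers span −0.95 to 1.30. In the panel of the Gcgr-labelled libraries against control they span −0.52 to 1.32.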

How the data were processed

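The authors deposited 1 table of FPKM values, which also lists gene length and position, per the file headers. Per the labels' protocols, RNA came from a Trizol extraction and libraries from a SMARTer mRNA-Seq kit. GRCm38 and mm10, names of one build, are given per the submitters' processing notes. The sources used here do not give the aligner, the counter or the use of strand. Of the table, 1 incomplete line was left out.

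Low FPKM values (up to 200 steps) times gene length came out as whole numbers of a library's step in 100% of cases (tolerance 0.05), which gave the recovered reads. Pairs of replicates differed by 7.14 to 76.09 times sampling noise, so each library counted as 1 sample. FPKM values were transformed to log2(FPKM + 1). Genes of 1 FPKM or more in at least 4 libraries (13279) were fitted with limma 3.58.1 (limma-trend, R 4.3.3) as 3 group means over all 17 libraries, with Benjamini-Hochberg adjustment and a threshold of 0.05. The limma fit was tested on simulated data for Ctr shRNA against control. Other tools were Python 3.11.15, pandas 2.3.3 and matplotlib 3.10.9.

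The markers and all gene lists (185 genes with the 10 markers, from textbook knowledge) were chosen with earlier results of these data known. Genes were named by a rule: the markers, Lyz1 as the copy of Lyz2, Gcgr, Adipoq and Upk3a as checks, up to 3 genes with the smallest p among those passing per list and comparison, or the 1 with the smallest p where none passed, and the 2 genes most like each marker. Hmgxb3 (the gene that overlaps Csf1r), Mertk, Axl, Spi1, Ccr2, Cd14, Cd163, Trem2, Vsig4, Ctsz, Ifi30, Slc5a2 and Kap were added after their values were seen. A few genes picked by the rule are not reported here. Alternatives changed the scaling, filter, pseudocount or variance model, or used limma voom on recovered reads, only the groups compared, each library left out in turn, or Ctr shRNA 20 and Gcgr shRNA 31 left out together. Promoters come from RefSeq (GRCm38.p6) and shared stretches from a GRCm38 transcript set. Promoters of Csf1r, Adgre1, C1qa and Tyrobp were not used here.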

Additional observations from a re-analysis of the deposited data

How the results depend on the processing

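The count of all genes called in Ctr shRNA against control (994) ran from 456 to 1264 with each library left out: it was 487, 477, 456 and 659 without control 37, 38 or 39 or Ctr shRNA 4. It was 597 with no filter on low values and 2087 with limma sample weights, where 8 markers passed in place of 4. The other myeloid genes called there (6) were 2 with no filter, 18 with sample weights, 3 with only the 2 groups compared, and 1 to 12 with each library left out.

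For the Gcgr-labelled libraries against control, the count over all genes (268) was 155 with no filter, 154 with a filter at a mean FPKM of 5, 1070 with sample weights and 438 with only the 2 groups, and ran from 103 to 348 with each library left out (131, 105, 103, 165 and 170 without control 37, 38 or 39 or Gcgr shRNA 13 or 35). The markers called (2) were 5 with sample weights and 5 with only the 2 groups. The other myeloid genes called (5) were 3 with a pseudocount of 5, 3 with no filter, 2 with a filter at a mean of 5, 13 with sample weights, 3 with voom, 8 with only the 2 groups, and 2 to 7 with each library left out. Of all calls 70.5% were higher, and 58.3% with sample weights and 59.4% with voom.

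For the Gcgr-labelled against the Ctr shRNA libraries, 0 genes passed, and 1 with upper-quartile scaling, a pseudocount of 0.1, a filter at a mean FPKM of 5, or only the 2 groups, and 0 to 3 with each library left out. Markers near 0 changed sign: Lyz2 was −0.0209 with TPM, −0.0604 with sample weights, −0.0111 with voom and −0.0023 without Ctr shRNA 20 and Gcgr shRNA 31; Ctss was −0.0248, −0.0406, −0.0125 and −0.0255 under the same; Tyrobp was −0.0471 with sample weights and −0.0526 without both libraries; Adgre1 was −0.0376 and C1qc −0.0164 with sample weights. With each library left out Lyz2 ran from −0.17 to 0.11, C1qa from −0.0645 to 0.22, C1qb from −0.012 to 0.25, C1qc from −0.0574 to 0.24, Tyrobp from −0.11 to 0.22 and Ctss from −0.0907 to 0.13, the low ends coming without Ctr shRNA 19 (Ctss: Ctr shRNA 1) and the high ends without Ctr shRNA 6. The cause of these changes was not tested. Mrc1, Cd68 and Adgre1 rest on few reads, which limits what can be read from them. No paired analysis was possible because the groups share no replicate numbers.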
